A study of Mus musculus with 15 samples.

Results

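The genes described here encode the proteins of the cytosolic ribosome. They were taken from the deposited count table by symbol, as Rpl or Rps followed by a digit, without the rows named as pseudogenes (-ps) and the Rps6k kinases, plus Rplp0, Rplp1, Rplp2 and Rpsa. This gave 86 of 17185 genes, 50 with large-subunit and 36 with small-subunit names. Of these, 77 are canonical ribosomal protein genes and 9 are variants or pseudogene-like copies (Rpl3l, Rpl7l1, Rpl22l1, Rpl36al, Rps3a2, Rps3a3, Rps4y2, Rps19bp1 and Rps27l). Rps19bp1 encodes a protein that binds RPS19 and is itself not part of the ribosome. The study profiled intestinal cells by Seq-Well, a single-cell method that tags each captured transcript with a unique molecular identifier (UMI). The groups were 3 mice on a high fat diet (HFD, 60% of kcal from fat) and 2 mice on a control diet (10% of kcal from fat). All 5 mice were 6 months old and of the strain Lgr5-eGFP-IRES-CreERT2, in which the locus of the stem cell gene Lgr5 drives a green fluorescent protein and an inducible Cre recombinase. Each mouse gave 3 libraries, of the proximal small intestine, of the distal small intestine (below, the proximal and the distal part) and of the colon, 15 in all. The authors' cell table calls each cell stem or not. In 18919 of 18919 cells the stem call coincided with 1 or more UMIs of either Lgr5 or eGFP, so it used no ribosomal protein gene. UMIs were summed per mouse, organ and call, which gave 30 sums from 4618 stem-called and 14301 other cells. The other cells are a mixture of cell types and can include stem cells in which no Lgr5 or eGFP UMI was seen.

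A cytosolic ribosome has a small subunit, which decodes the mRNA, and a large subunit, which joins amino acids into protein. Making ribosomes is among the largest costs of a growing cell, and the intestinal crypts, where Lgr5-expressing stem cells divide and their daughters amplify, are among the fastest renewing tissues of the adult mouse. Ribosomal protein mRNAs are known for a pyrimidine tract at the 5′ end (the terminal oligopyrimidine motif), through which LARP1 and the mTOR pathway control their translation.

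Start regions are shown for 8 members, of which the first 4 carry a pyrimidine run and were called higher in stem-called cells of every organ, the next 2 were called higher without such a run, and the last 2 are variants that carry a run and were not called higher. Each has 30 bases on the gene's strand, 10 before the RefSeq start (GRCm38.p6) and 20 from it, and capitals mark a pyrimidine run that begins with C within 5 bases of the start.
Rpl27a (chr7:109519185-109519214, plus strand): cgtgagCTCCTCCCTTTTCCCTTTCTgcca
Rps18 (chr17:33955646-33955675, minus strand): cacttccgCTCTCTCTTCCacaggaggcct
Rpl14 (chr9:120571507-120571536, plus strand): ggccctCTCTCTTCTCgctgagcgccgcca
Rpl12 (chr2:32961702-32961731, plus strand): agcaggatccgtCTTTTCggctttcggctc
Rpl4 (chr9:64173377-64173406, plus strand): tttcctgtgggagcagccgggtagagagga
Rpl22 (chr4:152324426-152324455, plus strand): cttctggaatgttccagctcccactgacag
Rpl22l1 (chr3:28805498-28805527, plus strand): gcgcaagcccgttCTCTTCCCacggctgca
Rps27l (chr9:66946076-66946105, plus strand): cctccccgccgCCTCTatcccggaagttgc
A run of at least 5 bases stood at the start of 29 of the 63 members with a matched RefSeq start region, or 46.0%, and of 23.6% of 12477 other genes of the count table. The letters CCGGAAG, or CTTCCGG on the opposite strand, were found in the 300-base window around the start in 25 of the 63 members (39.7%) and in 17.4% of the other genes. Annotated starts can lie some bases from the starts used in these cells.

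Over all cells the members held 6547273 of 282337804 UMIs, or 2.32%. The stem-called sums held 27 to 617 cells and 321496 to 13694552 UMIs, and the sums of other cells 297 to 1438 cells and 1699260 to 28652200 UMIs. The smallest sum was the stem-called one of the colon of HFD mouse 2. HFD mouse 3 and control mouse 2 had the highest median UMIs per cell in each organ and call. The cell table numbers the control mice 1 and 3 where the sample titles have 1 and 2, and by elimination its mouse 3 was read as control mouse 2. Libraries shared 16 cell barcode sequences, carried by 37 cells. Summed levels of 9 counted crypt stem cell genes were 3362 to 11820 counts per 1000000 UMIs (CPM) in stem-called cells, against 947 to 4184 CPM in other cells, and higher in stem-called cells of 15 of 15 libraries. The list of these genes holds Lgr5, which the stem call uses, so part of this difference is set by the call itself. A list of 14 dividing-cell genes was higher in stem-called cells of 5, 4 and 5 of 5 libraries of the proximal part, the distal part and the colon. Markers of goblet, enteroendocrine, T and myeloid cells were lower in stem-called cells of 5 of 5 libraries in each organ, and those of enterocytes in 5, 5 and 4 of 5. Paneth cell markers were higher in stem-called cells of 2, 5 and 0 of 5 libraries of the proximal part, the distal part and the colon, those of B and plasma cells in 4, 2 and 0, and those of tuft cells in 2, 2 and 0, and their part in the results below was not tested. No label says whether mice of 1 diet were housed or processed apart, so such a difference cannot be told apart from diet. The p-values for diet measure the spread between mice of a group, taken over 15 sums with no block for the mouse. Those for the stem call measure the spread of the differences within libraries.

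The counted levels of the members spanned a wide range. The 10 highest took 61.0% of the members' UMIs. Among them, as the mean of the 30 sums, Rpl4 was at 3028, Rps3 at 2174, Rpl8 at 1628, Rplp0 at 1469, Rps14 at 1241, Rpl13a at 1153, Rplp1 at 846, Rps26 at 745 and Rps9 at 690.2 CPM. The protein of Rpl4 lines the exit tunnel of the large subunit, that of Rps3 lies along the mRNA path of the small subunit, and those of Rplp0 and Rplp1 belong to the stalk that recruits translation factors. Another 16 members averaged under 10 CPM, 13 of them canonical. The 5 lowest were Rpl36 (0.577 CPM), Rps12 (0.330 CPM), Rpl3l (0.0928 CPM), Rps3a2 (0.0222 CPM) and Rps27 (0.00582 CPM). The products of Rpl36, Rps12 and Rps27 are standard parts of the ribosome, so these counts cannot be read as amounts of transcript. A count of 0 in a library gives no limit either, since rare genes may have been removed per library.

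Transcript ends that are shared with other genes were found at many low members. Of the 50-base stretches in the last 300 bases of the RefSeq transcript, 10.8% of those of Rpl36, 5.18% of those of Rps12 and 0% of those of Rps27 occurred in no other annotated gene. Among the 13 low canonical members 10 had under 50% of such stretches to themselves, against 2 of the 10 highest. Of the 86 members, 55 shared at least 1 stretch with an annotated pseudogene and 25 had an end that was wholly their own. There were exceptions, since Rpl28 (2.81 CPM) had an end that was 100% its own. Across the 86 members, which share their libraries, the unique percentage and the level had a Spearman's rho of 0.29. How reads that match several genes were counted is not given in the sources used here, so the members are compared below between sums and not with each other.

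**Figure D1:**
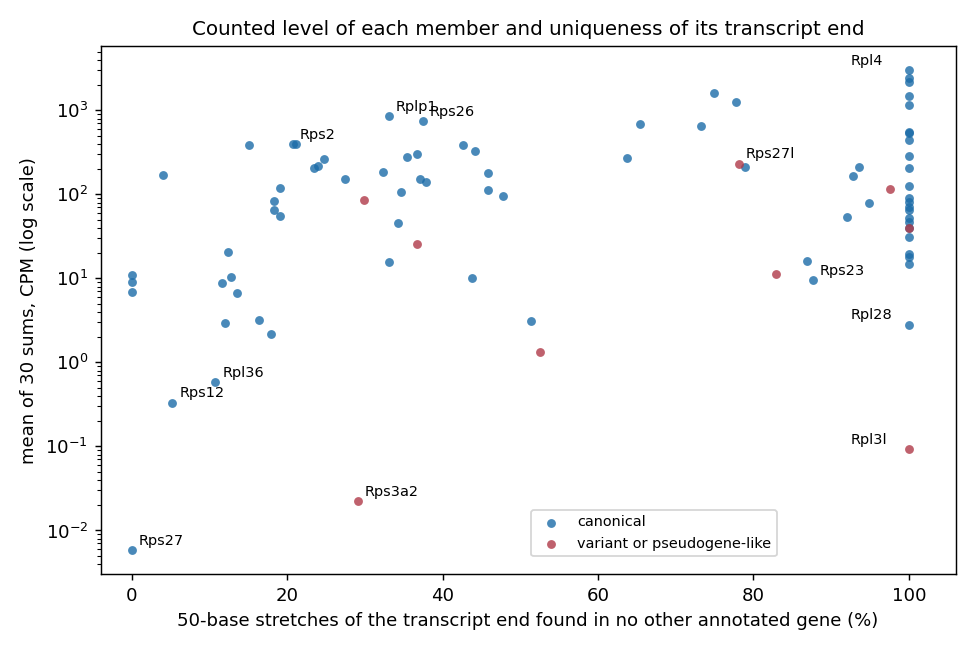
Mean counted level of the members over the 30 sums (vertical axis, CPM, log scale) against the percentage of 50-base stretches of the transcript end found in no other annotated gene (horizontal axis). Each point is 1 gene. Rps27, Rps12 and Rpl36 lie low at the left, and Rpl4 and Rps3 are among the highest points, at 100%.

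The members together took a larger share of UMIs in stem-called than in other cells in 15 of 15 libraries. In the proximal part the share was 3.35, 2.74, 2.29, 2.91 and 2.92% in stem-called cells of HFD mice 1, 2 and 3 and control mice 1 and 2, against 3.01, 2.16, 1.75, 2.45 and 2.36% in other cells. In the distal part it was 3.26, 2.43, 2.18, 2.95 and 3.18% in stem-called cells, against 2.56, 1.86, 1.78, 2.32 and 2.46% in other cells of the same mice. In the colon it was 3.19, 2.55, 2.20, 3.18 and 3.03% in stem-called cells, against 2.50, 1.66, 1.58, 2.80 and 1.94% in other cells. Within every mouse the stem-called value was the higher one, while the ranges over the mice overlapped. The difference averaged 0.496 ± 0.0973 percentage points in the proximal part, 0.602 ± 0.127 in the distal part and 0.739 ± 0.268 in the colon (SD, n = 5 libraries each), and the ratio averaged 1.22, 1.27 and 1.38. The widest 95% Wilson half-width of a share was 0.0545 percentage points, which covers counting error only. In such sums, more cells of a type that is rich in these transcripts and more of the transcripts per cell cannot be told apart.

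**Figure D2:**
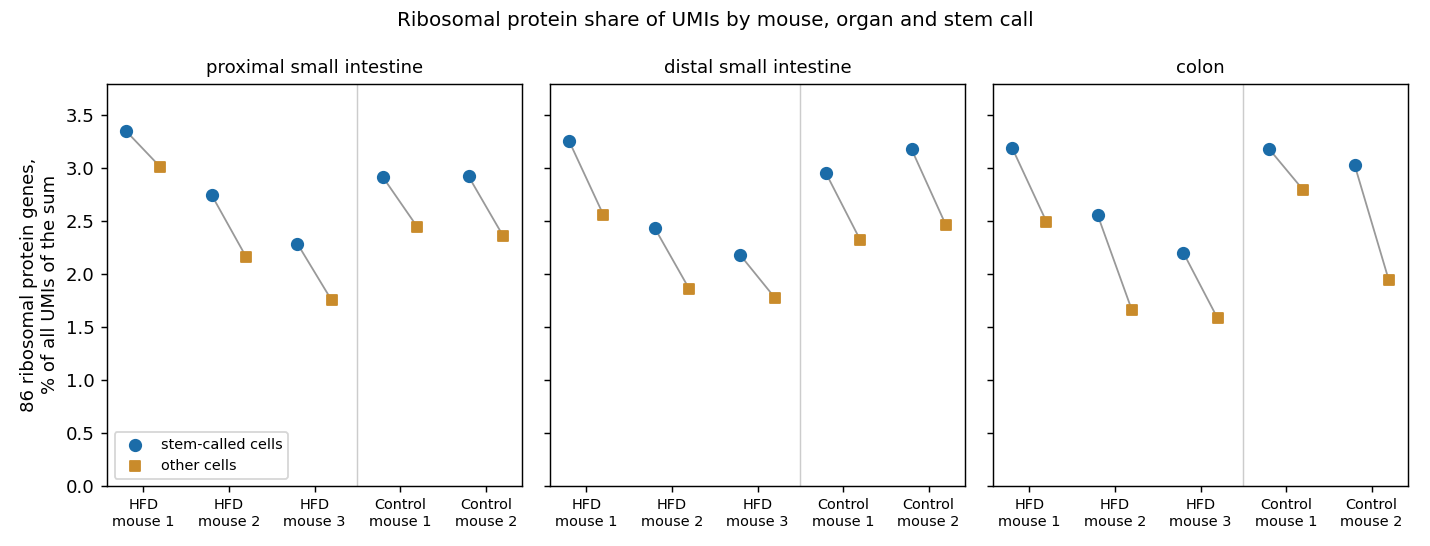
Share of all UMIs held by the 86 ribosomal protein genes (vertical axis, %) in stem-called and other cells of each mouse, with a panel for each organ. The stem-called value is above that of the other cells in 15 of 15 libraries, and HFD mouse 3 has the lowest stem-called share in each organ.

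Stem-called cells had the higher median of UMIs per cell in 11 of 15 libraries and more transcripts of dividing cells. The share was therefore recomputed at like depth, and within cells that passed a floor of dividing-cell UMIs. With every cell thinned to 3000 UMIs and the call made again, it was higher in stem-called cells of 15 of 15 libraries, by 0.551 ± 0.227 percentage points (SD), with 961 shallower cells left out. Among cells of like depth with the deposited call, the difference was 0.570 ± 0.291 percentage points in 6 libraries at 3000 to 6000 UMIs, 0.558 ± 0.180 in 9 libraries at 6000 to 10000, 0.668 ± 0.205 in 14 libraries at 10000 to 20000 and 0.581 ± 0.220 in 11 libraries above 20000, and was positive in each of them. Among dividing cells of both calls, defined by at least 3 UMIs over 8 genes, it was 0.463 ± 0.145 percentage points and positive in 15 of 15 libraries. On average 73.1, 60.5 and 64.8% of stem-called cells passed this floor in the proximal part, the distal part and the colon. Of other cells 72.1, 55.8 and 40.2% did. The floor was set on cells that were not thinned, so it does not match division between the calls. With mitochondrially encoded genes left out of the total the difference was 0.724 ± 0.250 percentage points.

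Gene by gene, most canonical members were higher in stem-called cells. Of the 86 members, 81 passed the filter on low counts, all but Rpl3l, Rpl36, Rps3a2, Rps12 and Rps27. In the proximal part 47 of the 81 were called higher and 2 lower (edgeR quasi-likelihood test with the library as a block, Benjamini-Hochberg adjusted p under 0.05), where 17% of all 12761 genes tested were called higher and 21.6% lower. In the distal part 51 were called higher and 1 lower, where 21.6% and 24.4% of all genes were. In the colon 61 were called higher and 0 lower, where 22.1% and 23.7% of all genes were. The median log2 fold change of the 81 was 0.20 in the proximal part, 0.28 in the distal part and 0.37 in the colon (folds of 1.15, 1.21 and 1.29), and that of all genes was within 0.01 of 0 in each. The same direction, higher in all 5 mice, was found for 54, 55 and 54 members in the 3 organs, where 27.1%, 24.4% and 18.2% of all genes had it. In all 3 organs 44 members were called higher, and 61 in at least 1. This overlap was not counted over all genes, so it is not read as particular to the members. Without the library as a block the test called 0, 1 and 5 of 81 members higher and 0 lower, where 3.85%, 7.82% and 9.24% of all genes were called higher, so the members' share was then below that of all genes in each organ. With thinned cells it called 26, 37 and 10 of 75 members higher, where 7.19%, 11.7% and 3.5% of all genes were, and the stem-called colon sum of HFD mouse 2 held 8 cells. In the proximal part 26 members were called higher without HFD mouse 3 and 31 without control mouse 2, where 11.6% and 12.1% of all genes were.

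Rpl3, whose protein lies near the peptidyl transferase centre of the large subunit (chromosome 15, 80077781 to 80083406, GRCm38.p6), had the smallest p among the members in the proximal part. There it had 212, 243, 198, 219.9 and 213 CPM in stem-called cells of HFD mice 1, 2 and 3 and control mice 1 and 2, against 170.4, 177, 140.2, 163 and 167 CPM in other cells. In the colon it had 272, 230.2, 252, 228 and 306 CPM in stem-called cells, against 174, 157, 169.9, 193 and 172 CPM in other cells. Rpl3 in the distal part had 278, 208, 225, 207 and 301 CPM in stem-called cells, against 204, 145, 171, 142 and 225 CPM in other cells. The ranges of stem-called and other cells did not overlap in the proximal part and the colon, and overlapped in the distal part, where each mouse was higher in its stem-called cells. Its log2 fold change was 0.35 (SE 0.06, adjusted p = 0.000143) in the proximal part, 0.43 (SE 0.06, adjusted p = 1.57e-05) in the distal part and 0.52 (SE 0.06, adjusted p = 4.92e-06) in the colon. The end of Rpl3 is 23.5% its own and shares stretches with 9 annotated pseudogenes.

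Among the other large-subunit genes, Rpl4 had 4115, 3384, 2916, 4492 and 3079 CPM in stem-called proximal cells of HFD mice 1, 2 and 3 and control mice 1 and 2, against 3504, 2593, 2217, 3709.5 and 2468 CPM in other cells. The mice overlapped between the calls, but each mouse was higher in its stem-called cells. Its log2 fold changes were 0.26, 0.35 and 0.49 in the proximal part, the distal part and the colon. Rpl12, at the base of the stalk, rose by 0.32, 0.45 and 0.67 in the same order. Rpl10a, of the L1 stalk through which spent tRNA leaves, rose by 0.32, 0.36 and 0.71, with 42.3, 15.6, 14.4, 16.6 and 22.2 CPM in stem-called colon cells, against 22.2, 15.3, 7.49, 10.9 and 13.3 CPM in other colon cells. HFD mouse 2 had nearly the same Rpl10a level in both calls, and the 4 others a wider gap. Rpl22 rose by 0.29, 0.43 and 0.46 and Rpl23, which can bind the p53 regulator MDM2, by 0.31, 0.39 and 0.40. Rpl14 (0.49), Rpl27a (0.48), Rpl6 (0.48) and Rpl36a (0.62) were also among the 12 largest rises in the colon.

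Among the small-subunit genes, Rps4x rose by log2 fold changes of 0.31, 0.44 and 0.44 in the 3 organs in the same order (adjusted p = 0.000202, 5.59e-06 and 2.13e-05) and Rps19, which is often mutated in human Diamond-Blackfan anaemia, by 0.31, 0.45 and 0.46. Rps26, whose protein contacts the mRNA at the exit channel, had 1071, 1064, 703, 1288 and 801 CPM in stem-called colon cells of HFD mice 1, 2 and 3 and control mice 1 and 2, against 693, 489, 476, 1108 and 467 CPM in other colon cells. Each mouse was higher in its stem-called cells, and the log2 fold change was 0.59. Rps23, whose protein is part of the decoding centre, had the largest log2 fold change of the called members in the colon (0.85, SE 0.18, adjusted p = 0.000989) and in the proximal part (0.37, SE 0.14, adjusted p = 0.043). Its levels were low, at 21.5, 15.6, 7.41, 11.2 and 8.97 CPM in stem-called colon cells and 8.71, 5.30, 4.18, 7.90 and 5.18 CPM in other colon cells. It was not called in the distal part (adjusted p = 0.0697), and with thinned cells its proximal log2 fold change was -0.06. Rps7 (0.34) and Rps20 (0.30) were among the 12 largest rises in the proximal part, Rps28 (0.45) and Rps18 (0.38) in the distal part, and Rps16 (0.48) in the colon. Rps16 had 28.8, 9.33, 9.49, 5.91 and 29.3 CPM in stem-called colon cells of HFD mice 1, 2 and 3 and control mice 1 and 2, against 26.4, 10.6, 5.01, 8.81 and 13.2 CPM in other colon cells, and was thus higher in 3 of 5 mice and lower in HFD mouse 2 and control mouse 1. Rpl36a and Rps28 were higher in 4 of 5 mice in the colon.

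Both subunits were represented. Of 45 large-subunit canonical members tested, 26, 30 and 38 were called higher in the proximal part, the distal part and the colon, with median log2 fold changes of 0.20, 0.26 and 0.37. Of 29 small-subunit canonical members, 21, 21 and 23 were, with medians of 0.22, 0.30 and 0.38. Of 28 members with a pyrimidine run at the start, 18, 21 and 24 were called higher (medians 0.20, 0.28 and 0.36), and of 32 without one 19, 18 and 22 (medians 0.22, 0.29 and 0.38). Rps6, whose protein is the classic substrate of the S6 kinases, averaged 3.19 CPM and was not called in any organ, with log2 fold changes of 0.13, 0.14 and -0.08. It is named here after its values were seen.

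**Figure D3:**
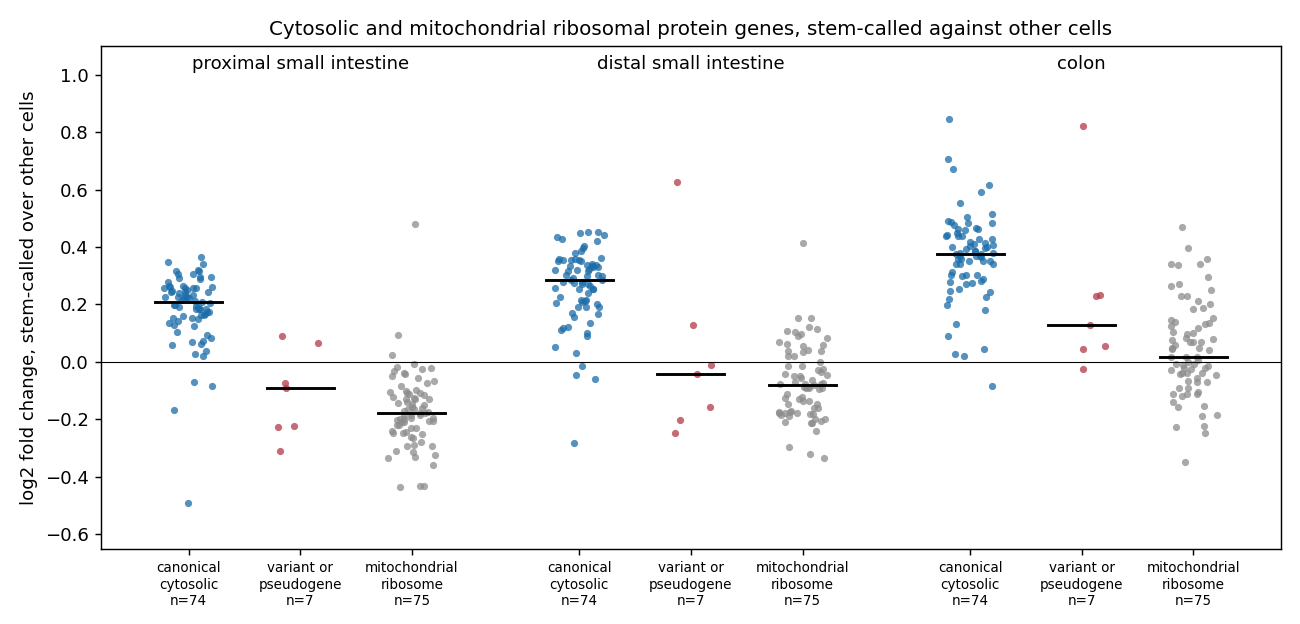
Log2 fold change of stem-called over other cells (vertical axis) in each organ for canonical cytosolic members, variant and pseudogene-like members and mitochondrial ribosomal protein genes. Each point is 1 gene and bars are medians, which are 0.21, 0.29 and 0.38 for the canonical members in the proximal part, the distal part and the colon, -0.09, -0.04 and 0.13 for the variants, and -0.18, -0.08 and 0.02 for the mitochondrial set.

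Of the 7 variants tested, 0 were called higher in any organ. Of all genes 17%, 21.6% and 22.1% were, in the proximal part, the distal part and the colon. In the same order 2, 1 and 0 variants were called lower, where 21.6%, 24.4% and 23.7% of all genes were. Counts over so few genes are not set apart from these shares. Rps3a3, at a mean of 1.33 CPM, had log2 fold changes of 0.09, 0.63 and 0.82 and was not called. It was higher in stem-called cells of 3, 4 and 3 of 5 libraries. Rpl36al, a paralogue of Rpl36a (chromosome 12, 69182734 to 69184067, GRCm38.p6), was called lower in the proximal part (log2 fold change -0.23, SE 0.05, adjusted p = 0.00226) and in the distal part (-0.20, SE 0.06, adjusted p = 0.00622). In the distal part it had 105, 30.5, 50.1, 85.9 and 86.2 CPM in stem-called cells of HFD mice 1, 2 and 3 and control mice 1 and 2, against 122, 39.8, 53.1, 100.5 and 91.0 CPM in other cells. Each mouse was lower in its stem-called cells, and the ranges overlapped. Rps27l, a p53 target and paralogue of Rps27 (chromosome 9, 66944624 to 66949522, GRCm38.p6), was called lower in the proximal part (-0.22, SE 0.07, adjusted p = 0.0129), with 408, 203, 136, 277 and 212 CPM in stem-called cells, against 427, 228, 157, 323 and 233 CPM in other cells of the same mice. Each mouse was lower in its stem-called cells there too. Rps27l was not called in the distal part (-0.16, adjusted p = 0.0708) or in the colon, where 3 of 5 libraries were higher in stem-called cells. With thinned cells 0 members were called lower in any organ.

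Rpl22l1, which RPL22 is known to repress in mouse, had log2 fold changes of 0.07, 0.13 and 0.23 in the 3 organs, none of them called (adjusted p = 0.496, 0.206 and 0.0529), beside the called rises of Rpl22. Rpl7l1 (-0.07, -0.01 and 0.13), Rps19bp1 (-0.09, -0.04 and 0.23) and Rps4y2 (-0.31, -0.25 and 0.04) were not called, while Rpl7 (0.23, 0.34 and 0.39), Rps19 and Rps4x rose in each organ. Rpl36a was called in the colon only, and the difference between organs was not called for it. Rpl39, a small protein at the exit tunnel, rose by 0.24, 0.33 and 0.37. Rpl10, whose protein joins the large subunit late in its assembly, was not called (-0.07, -0.06 and 0.02), at a mean of 9.02 CPM and with an end that is 0% its own. Reads of 1 copy may have been counted for another, which was not tested.

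The stem effect itself was compared between organs in a test added after the medians had been seen. Colon minus proximal part gave 1 of 81 members called higher and 0 lower, where 4.37% and 4.29% of all genes were called. Colon minus distal part gave 0 (1.01% and 1.39% of all genes), and distal minus proximal part 0 (0.227% and 0.282%). Unadjusted p-values under 0.05 were found for 27, 7 and 0 of 81 members in edgeR, the only tool run for these contrasts, where 24.2%, 15.2% and 9.39% of all genes had them. The median differences of the members were 0.17, 0.10 and 0.08 on the log2 scale. The member called was Rps2, whose protein lies at the mRNA entry of the small subunit. In the colon Rps2 had 575, 554, 431, 307 and 438 CPM in stem-called cells of HFD mice 1, 2 and 3 and control mice 1 and 2, against 384, 324, 304, 240.2 and 278 CPM in other cells. In the proximal part it had 473, 533, 313, 432 and 359 CPM in stem-called cells, against 411, 448, 242, 398 and 314 CPM in other cells. Each mouse was higher in its stem-called cells in both organs. The log2 fold change was 0.51 in the colon and 0.16 in the proximal part, a difference of 0.34 (SE 0.09, adjusted p = 0.0190). With thinned cells the colon value of Rps2 was 0.17 and was not called (adjusted p = 0.446). The end of Rps2 is 20.7% its own and shares stretches with 48 annotated pseudogenes.

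Other genes of the translation apparatus were read from lists that, like the members, were chosen with earlier results of these data known, and are read against the 17%, 21.6% and 22.1% of all genes called higher, and the 21.6%, 24.4% and 23.7% called lower, in stem-called cells of the proximal part, the distal part and the colon. Of 47 ribosome biogenesis genes, 24, 34 and 41 were called higher in the 3 organs in that order, and 1, 0 and 0 lower (median log2 fold changes 0.21, 0.32 and 0.46). Npm1, a nucleolar chaperone, rose by 0.42 in the proximal part and 0.84 in the colon, Rrs1, an assembly factor of the large subunit, by 0.54 in the distal part and 0.91 in the colon, and Dkc1, the pseudouridine synthase of ribosomal RNA, by 0.33, 0.45 and 0.69. Of 12 host genes of small nucleolar RNAs, 10, 9 and 10 were called higher and 0 lower (medians 0.44, 0.58 and 0.66), with Snhg12 at 0.59, 0.58 and 0.75 and Snhg5 at 0.47, 0.76 and 0.84. Of 8 elongation factors, 5, 6 and 6 were called higher and 0 lower (medians 0.20, 0.23 and 0.32), with Eef1b2 at 0.38, 0.52 and 0.56.

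Of 35 initiation factors, 7, 13 and 20 were called higher and 2, 2 and 2 lower (medians 0.02, 0.11 and 0.22), so the proximal count lay near the share of all genes. Pabpc1, a poly(A)-binding protein whose own mRNA carries a pyrimidine tract, rose by 0.48, 0.61 and 0.52, and Eif6, which keeps the subunits apart, was lower at -0.36 in the proximal and -0.43 in the distal part. Of 15 genes of RNA polymerase I and its factors, 7, 7 and 7 were called higher and 0, 1 and 0 lower, with Polr1b at 0.36, 0.46 and 0.57. Of 20 regulators, 3, 2 and 5 were called higher and 3, 3 and 1 lower, near or below the shares of all genes. Of the genes called, Myc, a transcription factor that drives ribosome synthesis, rose by 0.95, 1.20 and 1.15, and Larp1 by 0.44 in the colon. Rps6kb1 rose by 0.22 in the distal part and Cnbp by 0.31 in the colon. Larp4b (-0.24) and Rps6ka1 (-0.30) were lower in the proximal part, and Rps6kb2 (-0.47) in the distal part. Of the 3 ribosomal protein genes outside the symbol rule 1 was called, Rack1, which the table lists as Gnb2l1 (0.28, 0.36 and 0.49).

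The mitochondrial ribosome has its own nuclear-encoded proteins. Of 75 tested, 0 were called higher and 33 lower in stem-called cells of the proximal part, 0 and 12 in the distal part and 14 and 4 in the colon, with median log2 fold changes of -0.18, -0.08 and 0.02. The 33 lower in the proximal part were above the share of all genes called lower there (21.6%), while the 12 in the distal part were below it (24.4%), and the 14 higher in the colon were near the share called higher (22.1%). Mrpl20 had the smallest p in both parts of the small intestine (-0.43 and -0.32), and Mrps30 in the colon (0.36). The 2 sets of cells also differ in their mixture of cell types. With other cells that carried a UMI of 9 immune genes left out, 39, 47 and 54 of 80 cytosolic members were called higher in the 3 organs and 3, 2 and 0 lower, where 17.1%, 20% and 18% of all genes were called higher. This rule left out 4909 of 14301 other cells and kept stem-called cells with such UMIs. In the colon of HFD mouse 1 such UMIs were in 438 of 470 other and 72 of 79 stem-called cells. The rule thus does not single out immune cells. Among dividing cells of both calls 37, 36 and 48 of 80 were called higher and 2, 2 and 0 lower, where 17.6%, 18% and 16.4% of all genes were called higher. The median log2 fold change among dividing cells was 0.15, 0.15 and 0.27 in the proximal part, the distal part and the colon, against 0.20, 0.28 and 0.37 among all cells. The part of enterocyte and goblet transcripts was not tested.

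The diet comparison asked whether the members differed between mice on the high fat and the control diet. No member passed the edgeR test in any organ or call. Of 81 members in stem-called cells, 0 were called in the proximal part, the distal part or the colon, where 0.122%, 0.0081% and 0% of all genes were. Of 82 members in other cells 0 were called as well, where 0.0839%, 0.00699% and 0% of all genes were. Unadjusted p-values under 0.05 were found for 0, 3 and 0 members in stem-called cells, where 3.72%, 2.67% and 2.54% of all genes had them, and for 1, 2 and 0 in other cells, where 3.1%, 2.01% and 3.44% did. DESeq2 also called 0 members in each. Without HFD mouse 1 such p-values were found for 5, 24 and 12 members in stem-called cells (3.58%, 4.83% and 2.76% of all genes) and for 7, 18 and 17 in other cells (3.56%, 3.36% and 3.36%), and 0 members were called. Without control mouse 1 they were found for 3, 13 and 11 members in stem-called cells (4.87%, 4.19% and 4.5% of all genes) and 3, 10 and 6 in other cells (3.6%, 3.42% and 4.16%). The median log2 fold change of HFD over control was 0.03, -0.31 and -0.15 in stem-called cells and 0.04, -0.37 and -0.27 in other cells, while the medians of all genes lay between -0.02 and 0.01. These medians moved with single mice. The proximal medians and that of stem-called colon cells changed sign with 1 mouse left out. The distal medians and that of other colon cells stayed negative. Leaving out each mouse gave -0.23 to 0.18, -0.55 to -0.17 and -0.36 to 0.01 in stem-called cells of the 3 organs and -0.27 to 0.24, -0.60 to -0.27 and -0.52 to -0.14 in other cells. In each of the 6 the lowest value was the one without HFD mouse 1. In the distal part 72 of 81 members lay below 0 in stem-called cells and 78 of 82 in other cells. The diet effect in the distal minus that in the proximal part had a median of -0.32 in stem-called cells, with 0 of 81 members and 0% of all genes called by edgeR and 0 members at an unadjusted p under 0.05 (1.45% of all genes). DESeq2 called 0 members and 4 other genes. With each mouse as a block in edgeR, which pairs the 2 parts within an animal, 11 of 81 members had an unadjusted p under 0.05. Of all genes 3.57% did, and 0 members were called. Members of 1 mouse share their libraries, so their common direction is not a count of independent results.

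**Figure D4:**
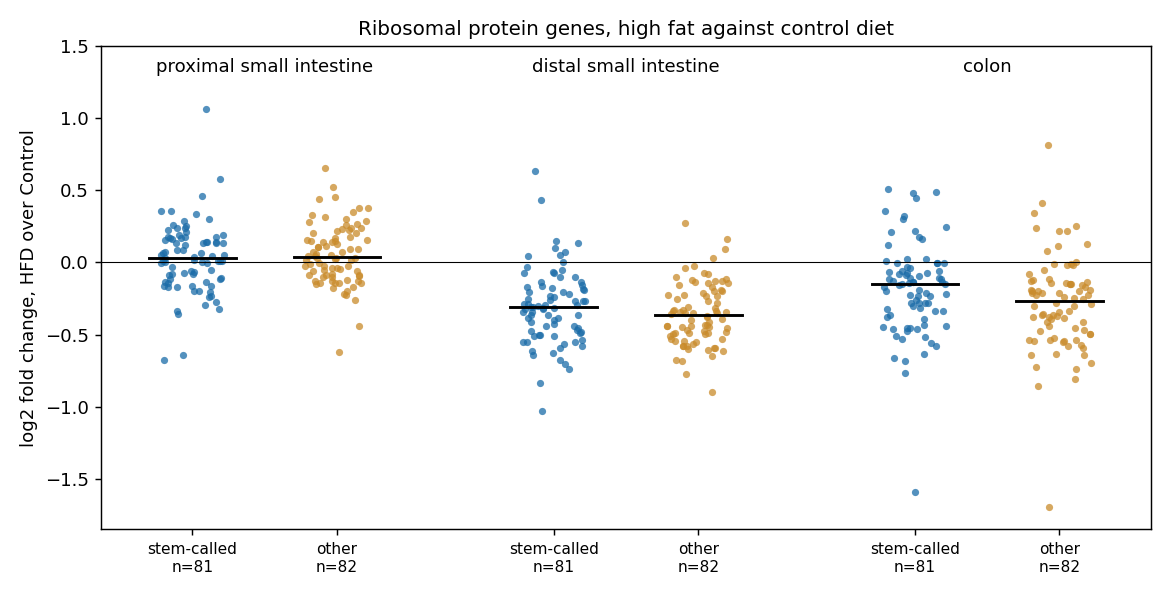
Log2 fold change of HFD over control (vertical axis) for each member tested in stem-called and other cells of each organ, with bars at the medians. The medians of stem-called and other cells lie at 0.03 and 0.04 in the proximal part, -0.31 and -0.37 in the distal part and -0.15 and -0.27 in the colon, and 0 members passed the test.

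Mice of 1 diet differed as widely as the diets. The stem-called share of the members, averaged over the 3 organs of a mouse, was 3.27, 2.58 and 2.22% in HFD mice 1, 2 and 3, against 3.02 and 3.04% in control mice 1 and 2. In other cells it was 2.69, 1.89 and 1.70% in the HFD mice, against 2.52 and 2.26% in the control mice. HFD mouse 1 lay above both control mice and HFD mice 2 and 3 below them in either call, so the diets overlapped. Of 70 members of at least 10 CPM, HFD mouse 3 was the lowest of the 5 mice for 41, 28 and 27 in stem-called cells of the proximal part, the distal part and the colon, and control mouse 2 for 3, 0 and 9. These are the 2 deeper mice. Both lay below all 3 shallower mice for 12, 2 and 13 of the 70 members, where 11.6%, 10.1% and 10.3% of 9212 genes of that level did. They lay above all 3 for 2, 7 and 4 of the 70 members, where 12.6%, 21.2% and 18.7% of those genes did.

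Rpl24, which encodes a large-subunit protein that bridges to the small subunit (chromosome 16, 55966275 to 55971437, GRCm38.p6), was among the members of smallest p in 5 of the 6 diet comparisons. In stem-called cells of the proximal part Rpl24 had 65.7, 66.3 and 66.6 CPM in HFD mice 1, 2 and 3, against 81.3 and 91.9 CPM in control mice 1 and 2. In the distal part it had 63.0, 53.5 and 60.9 CPM in HFD mice, against 73.2 and 77.8 CPM in control mice. In the colon it had 49.06, 71.54 and 64.6 CPM in HFD mice, against 71.55 and 88.6 CPM in control mice. The diets did not overlap in any organ, although HFD mouse 2 and control mouse 1 were almost equal in the colon. In other cells Rpl24 had 55.6, 48.4 and 60.5 CPM in the proximal part of HFD mice, against 76.0 and 77.0 CPM in control mice. In other cells of the distal part it had 53.7, 52.9 and 52.4 CPM in HFD mice, against 67.2 and 62.5 CPM in control mice, and in those of the colon 54.6, 51.2 and 52.0 CPM in HFD mice, against 63.7 and 58.6 CPM in control mice. The diets did not overlap there either. Its log2 fold changes were -0.36, -0.38 and -0.39 in stem-called and -0.44, -0.34 and -0.24 in other cells, and its smallest adjusted p was 0.875, so the difference did not pass the test in any of them. The 6 values come from the same 5 mice. HFD mice lay below control mice without overlap for 3, 3 and 6 members in stem-called cells, where 9.78%, 5.15% and 7.59% of all genes did, and for 1, 3 and 9 in other cells, where 10.4%, 3.45% and 4.11% did. The end of Rpl24 is 18.3% its own and shares stretches with 8 annotated pseudogenes.

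The other members of smallest p also failed the test, each at an adjusted p of 1. In stem-called cells they included Rps13 (log2 fold change 1.06) and Rps4y2 (-0.64) in the proximal part, Rpl18 (-0.59) and Rps14 (-0.62) in the distal part, and Rps2 (0.51) and Rplp2 (-0.53) in the colon. In other cells they were Rps13 (0.66) and Rps25 (0.35) in the proximal part, Rpl18 (-0.57) and Rpl34 (-0.61) in the distal part, and Rplp2 (-0.50) and Rpl12 (-0.59) in the colon. For the difference of the diet effects they were Rpl22l1 (-0.78), Rpl18 (-0.60) and Rpl38 (-0.78). Of the translation lists, 0 genes were called for diet in any organ or call.

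Along the gut, stem-called cells gave few differences among the members. Distal against proximal part gave 0 of 81 called by edgeR or DESeq2 and 0 at an unadjusted p under 0.05 in edgeR (13.7% of all genes), where edgeR called 3.78% of all genes higher and 1.69% lower, with a median log2 fold change of -0.02. The smallest p belonged to Rpl3 (0.20, SE 0.13, adjusted p = 0.677), Rplp2 (-0.24) and Rpl24 (-0.16). Colon against the mean of both parts of the small intestine gave 0 members higher and 1 lower, where 10.7% of all genes were called higher and 7.31% lower, with a median of 0.05 that was -0.11 with thinned cells and -0.04 to 0.08 with each mouse left out. A p that misses the threshold does not show that levels are equal. Of the lists, 1 of 35 initiation factors was called higher in the colon (Eif2b1, a subunit of the exchange factor of eIF2, 0.39) and 1 lower (Pabpc1, -0.43), 0 of 47 biogenesis genes higher and 2 lower (Dkc1, -0.34, and Ltv1, -0.41), 0 of 20 regulators higher and 1 lower (Mycn, -2.02), and 0 of 75 mitochondrial ribosomal protein genes higher and 2 lower. These shares are below those of all genes called.

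The member called was Rps4y2, which RefSeq lists as Rps4l, a transcribed pseudogene (chromosome 6, 148354656 to 148355596, GRCm38.p6). In stem-called cells it had 1.23, 0, 1.39, 1.18 and 5.85 CPM in the colon of HFD mice 1, 2 and 3 and control mice 1 and 2, against 14.2, 8.64, 13.8, 9.95 and 28.0 CPM in the proximal and 17.0, 5.60, 16.3, 8.25 and 24.2 CPM in the distal part. Each mouse was lower in its colon than in either part of its small intestine, and control mouse 2 was the highest in each organ. The log2 fold change of the colon over the small intestine was -2.83 (SE 0.50, adjusted p = 0.000724). Other cells had 0 to 2.85 CPM in the colon, against 8.15 to 34.3 CPM in the small intestine. With cells thinned to 3000 UMIs Rps4y2 did not pass the filter on low counts. It lies within Tmtc1 on the opposite strand, and whether counting used the strand is not stated, so reads of both genes may not be told apart. Rps4x was not called between the colon and the small intestine.

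**Figure D5:**
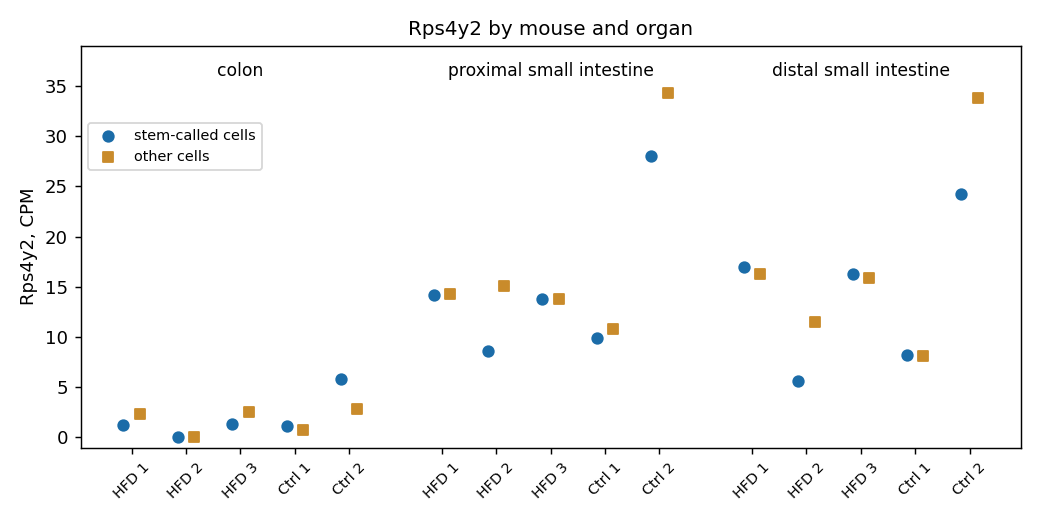
Rps4y2 level (vertical axis, CPM) in stem-called and other cells of each mouse in the colon, the proximal and the distal part. Colon values lie between 0 and 5.85 CPM, and stem-called values of the small intestine between 5.60 and 28.0 CPM.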

How the data were processed

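The deposited table holds raw UMI counts per gene and cell, per the file headers and the values, and the summed counts equal the authors' deposited total in 18919 of 18919 cells. The build was mm10 per the submitters' processing notes; the aligner, counting tool and annotation are not given in the sources used here. Counts were summed per library and stem call, with no cell removed and no doublet caller run. CPM are counts per 1000000 UMIs of a sum. Differences were tested with edgeR 4.0.16 in R 4.3.3 (quasi-likelihood F test, TMM, filterByExpr) over all genes, with diet and organ as groups, or with the library as a block for stem-called against other cells. P-values were adjusted over all genes tested. The SE is the log2 fold change divided by the quantile of its p. DESeq2 1.42.0 was an alternative, and the models were tested on simulated data. Sums of 1 mouse in 2 organs come from the same animal and deviated together (correlations 0.12 to 0.73), so organ comparisons were also fitted with the mouse as a block. Named genes are, per comparison, at most the 12 largest rises and 12 largest falls among called members, or the 3 of smallest p, the paralogue pairs, the 10 highest and 5 lowest levels, and at most 3 called genes per list. The members, lists and rules were chosen with earlier results of these data known. RefSeq matched 85 members by symbol and 1 by synonym. Results for some named genes are not reported here.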

Additional observations from a re-analysis of the deposited data

Results flagged for a closer look

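Rps2 was singled out because its rise in stem-called over other cells differed between the colon and the proximal small intestine by a test of the difference itself, with a log2 difference of 0.34 (adjusted p = 0.0190, edgeR), and it was higher in stem-called cells of 5 of 5 mice in both organs. The test was added after the medians had been seen. It called 1 of 81 members higher, where 4.37% of all genes were. With thinned cells the rise of Rps2 in the colon was not called. The cause of the difference was not tested.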

How the results depend on the processing

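The median log2 fold change of the members in stem-called over other cells stayed above 0 in each organ under each alternative fit, and so did the difference of the shares. The number of members called depended on the pairing of the sums within a library: with no replicate block 0, 1 and 5 were called higher in the proximal and distal part of the small intestine and in the colon, and 0 lower, where 3.85%, 7.82% and 9.24% of all genes were called higher. With cells thinned to 3000 UMIs, which leaves fewer UMIs, 26 were called higher in the proximal part and 10 in the colon, 0 were called lower, and 0 were called lower in the colon against the small intestine. In the distal part 2 were called lower with DESeq2, with its size factors and without the other cells that carried an immune-gene UMI. In dividing cells of both calls, an alternative chosen after seeing the data, 2 were called lower there too. Leaving out each mouse gave 26 to 48 higher and 1 to 2 lower in the proximal part, 46 to 53 higher in the distal part and 50 to 63 higher in the colon. Without the colon library of HFD mouse 2, also chosen after seeing the data, 60 were called higher there. In the main fit 17%, 21.6% and 22.1% of all genes were called higher in the 3 organs. The share of all genes called also changed between fits and is not given beside each of these counts. The ranges are thus no result about the members alone. Under the diet, 0 members were called in each alternative fit, among them the mouse number as a replicate block, a number that the diets share between different animals (correlations 0.02 to 0.38). The diet medians turned in the proximal part without HFD mouse 1 (-0.23 in stem-called and -0.27 in other cells) and, close to 0, without control mouse 1 and with the depth set as a factor, and in stem-called colon cells without HFD mouse 3 and with the replicate block (0.01 each). The median of the colon against the small intestine turned with thinned cells (-0.11) and without HFD mouse 2, control mouse 1 or control mouse 2. The mouse as a block changed no call between organs. Among the genes named for the size of their change or for a smallest p, the direction turned in 2 cases. Rps4y2 had a log2 fold change for diet in proximal stem-called cells of 0.33 without control mouse 2, the end of a range from -1.20 over the mice left out, and Rps23 one of -0.0591 in the proximal part with thinned cells. The cause was not tested.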
